A study of Danio rerio with 94 samples.

Results

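2-Butylnaphthalene is naphthalene, a fused pair of aromatic rings, with a 4-carbon alkyl chain on ring position 2. Its transcriptome was measured in 4 pools of zebrafish embryos, taken because their labels name this chemical, and set against the 5 control pools that have values. They are 9 of the 93 pools with values, out of 94 in the series, which covers 22 naphthalenes in all. All embryos were wild type of the 5D line. Those exposed to 2-butylnaphthalene were held at 20 µM in closed glass vials of 8 embryos, between 6 and 24 h post fertilization (hpf), and were moved to clean medium until collection at 48 hpf. Control embryos went through the same steps with 0 µM chemical. The chemical was added from a DMSO stock. Each pool held 6 phenotypically normal whole embryos, pooled by vial group. A pool is the replicate here, and it averages over all tissues of its embryos. All 2-butylnaphthalene pools (letters A, B, C and E) were exposed on day 2, whereas 2 of the control pools (1A and 1C) belong to day 1 and 3 (2A, 2B and 2C) to day 2. A further control of day 1 was removed by the authors and was not analysed here. RNA was read with TempO-Seq, in which pairs of detector oligos are ligated on their target RNA and counted, over 3068 genes. Values are CPM, the reads of a gene relative to the scaled total of its pool, and tests used the deposited log2 CPM values.

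Small aromatic hydrocarbons are taken up by embryos from the water and are oxidised by cytochrome P450 enzymes, several of which are induced through the aryl hydrocarbon receptor. Transferases then conjugate the products for export. Cortisol and other glucocorticoids act through the receptor Nr3c1, whose target genes include fkbp5 and klf9, and the embryo inactivates cortisol with the enzyme Hsd11b2. These points are background on the gene groups described here.

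The 4 pools of 2-butylnaphthalene held 9.01 to 12.0 M reads and the 5 control pools 8.14 to 12.7 M. The mean totals were 9.96 ± 1.35 M with 2-butylnaphthalene and 9.85 ± 1.85 M in control (SD, n = 4 and 5), with an exact two-sided permutation p of 0.913 over the 9 pools. Of the 3068 genes, 327 to 383 had no read in a 2-butylnaphthalene pool and 362 to 457 in a control pool (exact two-sided permutation p = 0.0714). The mean was 455.5 genes in the control pools of day 1 and 374 in those of day 2. In the 2-butylnaphthalene pools, all of day 2, it was 348. The part of exposure day in this difference was not tested. No pool was a repeat deposit of another, since their counts differed by far more than counting error, as pools of separate embryos do. Between any pair of the 9 pools the correlation of log2 CPM over genes was no higher than 0.958. The study pooled embryos by vial group, but its numbers of vials and pools do not settle whether each pool had its own vial. Nothing in the labels names separate spawnings, so p-values measure the spread between pools. For limma's SE and p-values that spread was estimated within all 23 groups of the series together, not from the 9 pools alone.

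Against control, 16 genes (0.522% of those tested) were differentially expressed genes (DEGs). A DEG had a log2 fold change (log2FC) of at least 1 in either direction, with a Benjamini-Hochberg adjusted p no higher than 0.05. Of these, 12 rose (0.391%) and 4 fell (0.130%). A further 36 genes passed the adjusted p with a smaller fold, which brings the genes past that threshold to 52 (1.69%), of which 25 were higher (0.815%) and 27 lower (0.880%). The median log2FC of all genes was 0. For 12 of the 16 DEGs and 29 of the other 36 genes the 2-butylnaphthalene and control pools did not overlap, against 133 genes (4.34%) of the whole table. The 52 genes were picked for a difference between the same pools, which by itself favours pools that do not overlap. The plot of the DEGs shows the level in each pool.

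**Figure D1:**
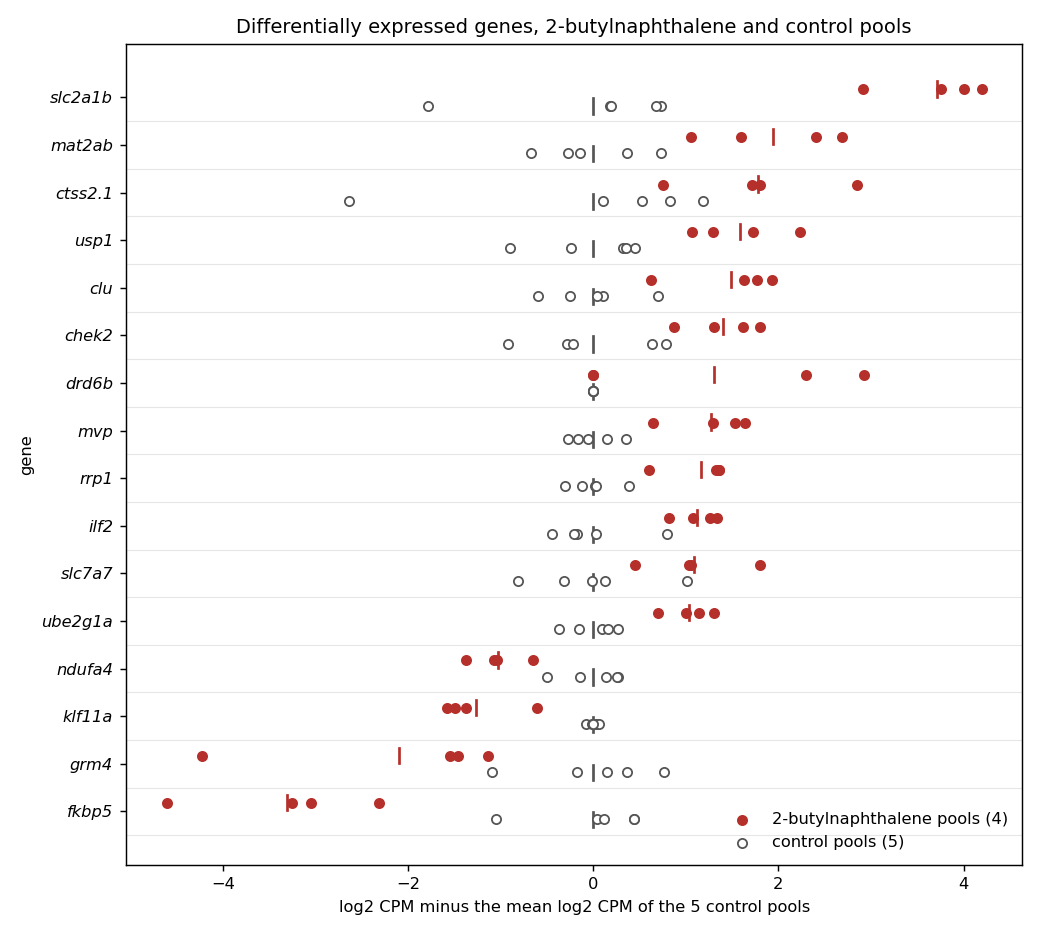
Log2 CPM of each pool minus the mean of the 5 control pools (x axis) for the 16 DEGs (rows). Red points are 2-butylnaphthalene pools and open points control pools, and the short bars are the group means. In 12 of the 16 rows no red point lies within the span of the open points. The 4 exceptions are ctss2.1, clu, slc7a7 and drd6b.

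The gene with the smallest adjusted p was mvp, which codes for the main protein of the vault, a large ribonucleoprotein particle of the cytoplasm. It had 337, 265, 169 and 312 CPM in 2-butylnaphthalene pools A, B, C and E, against 104, 89.3, 96.5, 138 and 120 CPM in control pools 1A, 1C, 2A, 2B and 2C. Every 2-butylnaphthalene pool stood above every control pool, with pool C the lowest of the 4. The log2FC was 1.27 ± 0.18 (SE), a 2.42-fold higher level, with limma's adjusted p = 1.6e-06.

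The largest fold change belonged to slc2a1b, a glucose transporter of the GLUT1 type. Its levels were 20.1, 42.8, 36.1 and 49.1 CPM in 2-butylnaphthalene pools, against 2.87, 4.27, 4.12, 0.588 and 2.89 CPM in control pools. The lowest 2-butylnaphthalene pool exceeded the highest control pool several times over. The log2FC was 3.72 ± 0.59 (adjusted p = 2.62e-05), or 13.1-fold. Of 36 measured genes of glucose transport, glycolysis and hypoxia it was the only one past the adjusted p, against 1.69% of all genes. The median log2FC of that list was -0.01.

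Clusterin (clu), a secreted chaperone that binds misfolded proteins, had 77.9, 95.7, 38.6 and 85.8 CPM in 2-butylnaphthalene pools, against 27, 16.5, 21.0, 25.7 and 40.7 CPM in control pools. Pool C lay within the control range and the other 3 pools lay above it. The log2FC was 1.49 ± 0.24 (adjusted p = 3e-05). Among 26 measured heat shock proteins and chaperones, clu rose and fkbp5 fell, against 1.69% of all genes past the adjusted p. The other 24 did not pass it. The cytosolic heat shock genes hsp70l and hsp90aa1.2 had log2FC of 1.06 and 0.23 with adjusted p of 0.60 and 0.67.

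The gene lists were chosen with earlier results of these data known, and the study names fkbp5, klf9 and klf11a from the same data. Counts of called genes in a list are thus not independent of the data. Of the 27 measured genes of the glucocorticoid receptor list 4 were lower at an adjusted p of at most 0.05, against 0.880% of all genes, and none was higher. Of these 4, klf11a and fkbp5 were DEGs. Over the whole list, 9 genes had a log2FC above 0 and 16 below. Among these, klf11a, a zinc finger transcription factor of the Kruppel-like family, had 71.1, 81.9, 139 and 75.1 CPM in 2-butylnaphthalene pools, against 216, 200, 222, 210 and 212 CPM in control pools. The control pools were close together and all 4 exposed pools lay below them, with pool C the nearest. The log2FC was -1.26 ± 0.20 (adjusted p = 2.62e-05).

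The co-chaperone gene fkbp5, which lowers the affinity of the glucocorticoid receptor for its hormone and is itself induced by that receptor, had 3.75, 6.40, 1.15 and 3.23 CPM in 2-butylnaphthalene pools, against 15.7, 44.4, 44.4, 33.5 and 35.3 CPM in control pools. The groups did not overlap, although the control pool of day 1 with the lowest value stood apart from the other 4 controls. The log2FC was -3.31 ± 0.91 (adjusted p = 0.0379), a level 9.90-fold lower than in control. The pools of 2-butylnaphthalene spread over a log2 SD of 0.96, against 0.61 in control.

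Smaller falls were measured for hsd11b2, the enzyme that turns cortisol into inactive cortisone, and for bcl6aa, a transcriptional repressor. The level of hsd11b2 was 195, 227, 182 and 200.7 CPM in 2-butylnaphthalene pools, against 279, 327, 253, 331 and 354 CPM in control pools. Its log2FC was -0.61 ± 0.14 (adjusted p = 0.00751). The level of bcl6aa averaged 36.8 ± 8.93 CPM in 2-butylnaphthalene pools and 60.8 ± 11.7 CPM in control pools (SD, n = 4 and 5), with a log2FC of -0.73 ± 0.19 (adjusted p = 0.0211). In both genes every exposed pool lay below every control pool.

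The receptor gene nr3c1 had a log2FC of 0.13 (adjusted p = 0.97), and the target genes tsc22d3 and per1a had log2FC of -0.71 and 0 (adjusted p = 0.52 and 1). The median log2FC over the 27 genes was -0.11. The Kruppel-like factor klf9, another glucocorticoid target, fell just outside the threshold (adjusted p = 0.0586). It had 0.235, 2.62, 0.628 and 0.581 CPM in 2-butylnaphthalene pools, against 6.57, 12.9, 7.96, 12.1 and 2.39 CPM in control pools, and only 2-butylnaphthalene pool B and control pool 2C overlapped. With pseudocounts of 1 or 4 CPM in place of the authors' prior count, klf9 passed both thresholds, at log2FC of -2.19 and -1.25. These pseudocounts weigh low values less. It was not a DEG against the control pools of day 2 in the fit of all samples, nor in the fit of the 9 pools alone. In 2-butylnaphthalene pools A, B, C and E klf9 had 2, 25, 6 and 7 reads. Its relatives klf11b and klf6a had log2FC of -1.22 and -0.24 (adjusted p = 0.44 and 0.25).

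Of 9 measured genes of the stress axis and steroid synthesis, hsd11b2 was the only one past the adjusted p, against 1.69% of all genes. In that list nr5a1a was the farthest from 0 (log2FC -1.5, adjusted p = 0.66). The pituitary hormone precursor pomca had a log2FC of -0.47 (adjusted p = 0.91), and the steroid carrier star had -0.30 (adjusted p = 0.95).

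The DEGs chek2 and usp1 act in the response to DNA damage. The checkpoint kinase gene chek2 had 32.8, 17.2, 23.3 and 29.0 CPM in 2-butylnaphthalene pools, against 14.6, 7.64, 7.96, 4.82 and 16.2 CPM in control pools, with a log2FC of 1.4 ± 0.32 (adjusted p = 0.00751). The deubiquitinase gene usp1, whose product acts on PCNA and on the Fanconi anaemia pathway, had 27.2, 17.1, 20.0 and 38.6 CPM in 2-butylnaphthalene pools, against 6.81, 11.12, 10.2, 4.23 and 10.4 CPM in control pools, with a log2FC of 1.58 ± 0.36 (adjusted p = 0.00751). In both genes the 2-butylnaphthalene pools lay above all controls.

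These 2 were the only genes of 40 measured in the p53 and DNA damage list past the adjusted p, against 1.69% of all genes. The p53 targets cdkn1a, mdm2 and ccng1 had log2FC of -0.59, -0.68 and -0.16 (adjusted p = 0.89, 0.95 and 0.89). The list's median was 0.03, and that of 85 measured cell cycle genes was 0.04, with none of the 85 past the adjusted p. The members farthest from 0 were the DNA repair gene ddb2 (log2FC 2.05, adjusted p = 0.21) and the cyclin gene ccna1 (-2.01, adjusted p = 0.52).

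The ubiquitin and proteasome list was also chosen with earlier results of these data known. Of its 40 measured genes, 4 were higher at an adjusted p of at most 0.05, against 0.815% of all genes, and none was lower. Of these 4, usp1 and ube2g1a were DEGs, and 21 of the 40 had a log2FC above 0. The conjugating enzyme gene ube2g1a had 292, 215, 266 and 328 CPM in 2-butylnaphthalene pools, against 103, 160, 120, 141 and 148 CPM in control pools, a rise of 1.04 ± 0.28 on the log2 scale (adjusted p = 0.0355). The ube2g1a call was kept in 8 of 11 other settings and in 4 of 9 fits without 1 pool. The Fanconi pathway conjugating enzyme ube2t averaged 53.3 ± 2.30 CPM in 2-butylnaphthalene pools and 32.1 ± 9.68 CPM in control pools (SD, n = 4 and 5), with a log2FC of 0.78 ± 0.22 (adjusted p = 0.0379). The mitotic inhibitor fbxo5 had a log2FC of 0.74 ± 0.21 (adjusted p = 0.0426), and usp1 was the fourth. The list's median log2FC was 0.02.

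The respiratory chain subunit genes ndufb3 and ndufa4 were lower. The complex I gene ndufb3 had 323, 298, 324 and 294 CPM in 2-butylnaphthalene pools, against 634, 549, 620, 510 and 582 CPM in control pools. The exposed pools were nearly equal and all lay well under the controls, with a log2FC of -0.90 ± 0.15 (adjusted p = 4.92e-05). The level of ndufa4 was 22.9, 23.4, 30.7 and 18.6 CPM in 2-butylnaphthalene pools, against 34.1, 43.7, 58.0, 53 and 57.7 CPM in control pools, with a log2FC of -1.03 ± 0.25 (adjusted p = 0.0135). The citrate cycle gene sucla2 fell by 0.44 ± 0.10 on the log2 scale (adjusted p = 0.0135). The mitochondrial ribosomal gene mrpl19 rose by 0.73 ± 0.17 (adjusted p = 0.0135). These 4 were the genes past the adjusted p among 49 measured in the list of mitochondrial respiration, ribosome and NADPH genes. Over all genes 1.69% passed. The list's median log2FC was -0.16, with 11 of the 49 above 0 and 38 below. This list too was chosen with earlier results of these data known. Another mitochondrial ribosomal gene, mrps2, had 10, 73, 40 and 28 reads in 2-butylnaphthalene pools, against 0, 1, 0, 0 and 5 reads in control pools, and missed the threshold (log2FC 3.64 ± 1.06, adjusted p = 0.0567).

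The genes rrp1, ilf2 and rpl15 also rose. The ribosomal RNA processing gene rrp1 had 42.7, 42.6, 41.6 and 25.2 CPM in 2-butylnaphthalene pools, against 13.4, 16.7, 15.1, 21.6 and 16.8 CPM in control pools, and its log2FC was 1.16 ± 0.28 (adjusted p = 0.0152). The RNA-binding protein gene ilf2 averaged 69.4 ± 10.8 CPM in 2-butylnaphthalene pools and 33.0 ± 12.7 CPM in control pools (SD, n = 4 and 5), and its lowest exposed pool, at 55.6 CPM, was close to its highest control pool, at 54.9 CPM (log2FC 1.12 ± 0.32, adjusted p = 0.0426). The ilf2 call was kept in 5 of 11 other settings and in 1 of 9 fits without 1 pool. The ribosomal protein gene rpl15 had 7336, 5467, 5930 and 5572 CPM in 2-butylnaphthalene pools, against 3882, 3918, 3578, 4223 and 3603 CPM in control pools (log2FC 0.65 ± 0.14, adjusted p = 0.00555). In all 3 genes the groups did not overlap.

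Metabolic and transport genes also stood among the DEGs. The gene mat2ab, for an enzyme that makes the methyl donor S-adenosylmethionine, had 11.0, 19.4, 7.53 and 23.6 CPM in 2-butylnaphthalene pools, against 2.87, 2.13, 3.16, 4.58 and 5.94 CPM in control pools. It rose by 1.94 ± 0.46 on the log2 scale (adjusted p = 0.0135). Of 18 measured genes of folate and one-carbon metabolism it was the only one past the adjusted p, against 1.69% of all genes. The amino acid transporter gene slc7a7 had 23.6, 23.1, 15.4 and 39.6 CPM in 2-butylnaphthalene pools, against 11.11, 6.29, 22.8, 12.2 and 8.99 CPM in control pools. One exposed pool lay within the control range (log2FC 1.09 ± 0.31, adjusted p = 0.0494), and the call was kept in 3 of 11 other settings and in 2 of 9 fits without 1 pool. The fatty acid binding protein gene fabp11b fell by 0.81 ± 0.16 on the log2 scale (adjusted p = 0.00093), with 668 to 1245 CPM in 2-butylnaphthalene pools and 1177 to 1961 CPM in control pools. It was the only one of 56 measured genes of lipid metabolism past the adjusted p, against 1.69% of all genes. In that list the sterol synthesis gene hmgcra was the farthest from 0 (log2FC 2.06, adjusted p = 0.23).

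The lysosomal protease gene ctss2.1, for a cathepsin S of immune cells, had 11.3, 23.5, 5.34 and 10.6 CPM in 2-butylnaphthalene pools, against 7.29, 0.337, 3.35, 5.64 and 4.54 CPM in control pools. Pool C overlapped the controls, and control pool 1C was far under the others (log2FC 1.78 ± 0.46, adjusted p = 0.0285). The call was kept in 5 of 11 other settings and in 5 of 9 fits without 1 pool. It was lost without control pool 1C and without 2-butylnaphthalene pool A, B or E. Among 69 measured immune and inflammation genes ctss2.1 was the only one past the adjusted p, against 1.69% of all genes. The class I histocompatibility gene mhc1uba had the largest fold (log2FC 2.90, adjusted p = 0.064). The level summed over those 69 genes was 1728 to 1985 CPM in 2-butylnaphthalene pools and 1607 to 1705 CPM in control pools, with an exact two-sided permutation p of 0.00794, the smallest that 4 against 5 pools can give, and 0.0556 after Benjamini-Hochberg adjustment over the 14 pool measures tested. The widest gaps in mean CPM within that sum were those of cfhl4 and c5. With 2-butylnaphthalene cfhl4 had 100 CPM against 15.7 CPM in control, and c5 had 279 against 214 CPM (limma's adjusted p = 0.28 and 0.25). Of the 69 genes, 42 had a log2FC above 0 and 20 below. The neutrophil marker mpx had a log2FC of -0.65 and lyz of -0.15 (adjusted p = 0.33 and 0.82). The part of immune cell number in the ctss2.1 level was not tested. In whole embryos, more cells of a type and more RNA per cell cannot be told apart.

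The DEGs grm4 and drd6b code for neurotransmitter receptors. The metabotropic glutamate receptor gene grm4 had 5.04, 5.35, 0.628 and 6.80 CPM in 2-butylnaphthalene pools, against 19.5, 6.96, 13.4, 16.8 and 25.7 CPM in control pools, with a log2FC of -2.09 ± 0.60 (adjusted p = 0.0477). Pools A, B and E lay just under the lowest control, and pool C lay far under it. The call was kept in 4 of 11 other settings and in 1 of 9 fits without 1 pool. The dopamine receptor gene drd6b had 0, 12, 0 and 9 reads in 2-butylnaphthalene pools A, B, C and E and 0 reads in all 5 control pools. Its mean CPM was at least 8.08-fold higher in 2-butylnaphthalene pools than the level that 3 reads over the 5 control pools would give. Its log2 SD over the 2-butylnaphthalene pools was 1.53, while limma's SE from the fit of all groups was 0.35. The drd6b call rests on the reads of pools B and E. It was kept in 2 of the 10 other settings that could test it and in 2 of 9 fits without 1 pool. None of 58 measured genes of neurons and glia passed the adjusted p, against 1.69% of all genes. The median log2FC of the 58 was -0.02. The dopamine synthesis gene th was the farthest from 0 (log2FC 1.48, adjusted p = 0.63).

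Of the 30 measured genes of the Wnt and casein kinase list, 1 rose and the genes ctnnb1 and nkd1 fell. Each of these passed the adjusted p, as did 1.69% of all genes, but not the fold threshold. The kinase gene csnk1a1, whose product marks beta-catenin for destruction, had 579, 447, 439 and 543 CPM in 2-butylnaphthalene pools, against 220, 262, 236, 267 and 272 CPM in control pools (log2FC 0.99 ± 0.21, adjusted p = 0.00353). The beta-catenin gene ctnnb1 fell by 0.39 ± 0.11 on the log2 scale and nkd1, an inhibitor and target of the pathway, by 0.49 ± 0.14 (adjusted p = 0.0379 for each). For nkd1 the pools had 143, 143, 132 and 141 CPM with 2-butylnaphthalene, against 190, 203, 189, 198 and 203 CPM in control, so both groups were tight and well separated. The list's median log2FC was -0.07, and the ligand gene wnt5b was the farthest from 0 (log2FC 1.58, adjusted p = 0.64).

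The collagen genes col11a1b and col1a1a fell by small amounts. The level of col11a1b was 527, 564, 629 and 527 CPM in 2-butylnaphthalene pools, against 784, 772, 738, 661 and 761 CPM in control pools (log2FC -0.40 ± 0.09, adjusted p = 0.00555). The level of col1a1a was 318, 303, 387 and 267 CPM in 2-butylnaphthalene pools, against 461, 468, 439, 390 and 396 CPM in control pools (log2FC -0.44 ± 0.10, adjusted p = 0.00751). They were the only genes past the adjusted p among 42 measured genes of cartilage, bone and neural crest, against 1.69% of all genes. In that list edn1 was the farthest from 0 (log2FC -1.66, adjusted p = 0.36). The paralog col1a1b had a log2FC of 0.16 (adjusted p = 0.77). The level summed over the 42 genes, collagens included, was 16403 ± 1967 CPM in 2-butylnaphthalene pools and 18791 ± 1325 CPM in control pools (SD, n = 4 and 5, exact two-sided permutation p = 0.0317, adjusted 0.148). The widest gaps in mean CPM within that sum were those of col1a2 (5714 against 7260 CPM) and matn4 (2365 against 3133 CPM). The gene col1a1b went the other way, at 2829 against 2511 CPM. Of the 42 genes, 19 had a log2FC above 0 and 21 below. The part of the summed level in the collagen values was not tested. The ER-shaping protein gene arl6ip1 fell by 0.43 ± 0.09 on the log2 scale (adjusted p = 0.00462), with 606 to 696 CPM in 2-butylnaphthalene pools and 715 to 946 CPM in control pools.

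Among 20 measured genes of photoreceptors, retina and lens, pde6gb was the only one past the adjusted p, against 1.69% of all genes. This gene codes for the inhibitory subunit of the phototransduction phosphodiesterase. It had 796, 771, 830 and 575 CPM in 2-butylnaphthalene pools, against 1116, 1151, 1045, 1090 and 968 CPM in control pools (log2FC -0.54 ± 0.12, adjusted p = 0.00751). The summed level of the list was 1786 to 2670 CPM in 2-butylnaphthalene pools and 2859 to 3120 CPM in control pools, without overlap (exact two-sided permutation p = 0.00794, adjusted 0.0556). The retinal bipolar cell gene vsx1 gave most of that sum with pde6gb and had a log2FC of -0.38 (adjusted p = 0.25), and the opsin gene opn1mw2 was the farthest from 0 (-1.33, adjusted p = 0.35). The part of retinal cell number was not tested.

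Genes tied to the metabolism of aromatic hydrocarbons gave no DEG, against 0.522% of all genes. Of 17 measured genes of the aryl hydrocarbon receptor list, the receptor paralog ahr1b fell by 0.88 ± 0.24 on the log2 scale (adjusted p = 0.0379), with 42.3, 30.7, 37.3 and 19.2 CPM in 2-butylnaphthalene pools, against 48.7, 64.1, 56.9, 50.3 and 69.4 CPM in control pools. The other 16 did not pass, and over all genes 1.69% passed. The classical target cyp1a had 10.2, 4.83, 7.53 and 2.99 CPM in 2-butylnaphthalene pools, against 0, 2.36, 0.863, 8.81 and 7.09 CPM in control pools. The pools overlapped over most of their range, and the log2FC was 1.57 with a 95% confidence interval of -0.25 to 3.39. The receptor ahr2, which mediates most of the response to dioxin in zebrafish, had a log2FC of -0.35 (adjusted p = 0.67), and cyp1b1 and cyp1c1 had 0.61 and -0.54 (adjusted p = 0.64 and 0.67).

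Over all genes 1.69% passed the adjusted p. None of 30 measured cytochrome P450 and other oxidation enzymes did, nor did any of 23 conjugation enzymes and transporters or 27 oxidative stress genes. Their median log2FC values were -0.01, 0.17 and 0. The members farthest from 0 were cyp2aa1 (log2FC -1.89, adjusted p = 0.27), sult1st2 (-2.32, adjusted p = 0.28) and gpx1a (-2.54, adjusted p = 0.55). The peroxidase gene gpx1a had 0.663 to 2.2 CPM in 2-butylnaphthalene pools, while 3 control pools held 27.8 to 29.0 CPM and the other 2 held 0.705 and 1.46 CPM, so the controls themselves fell in separate ranges.

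**Figure D2:**
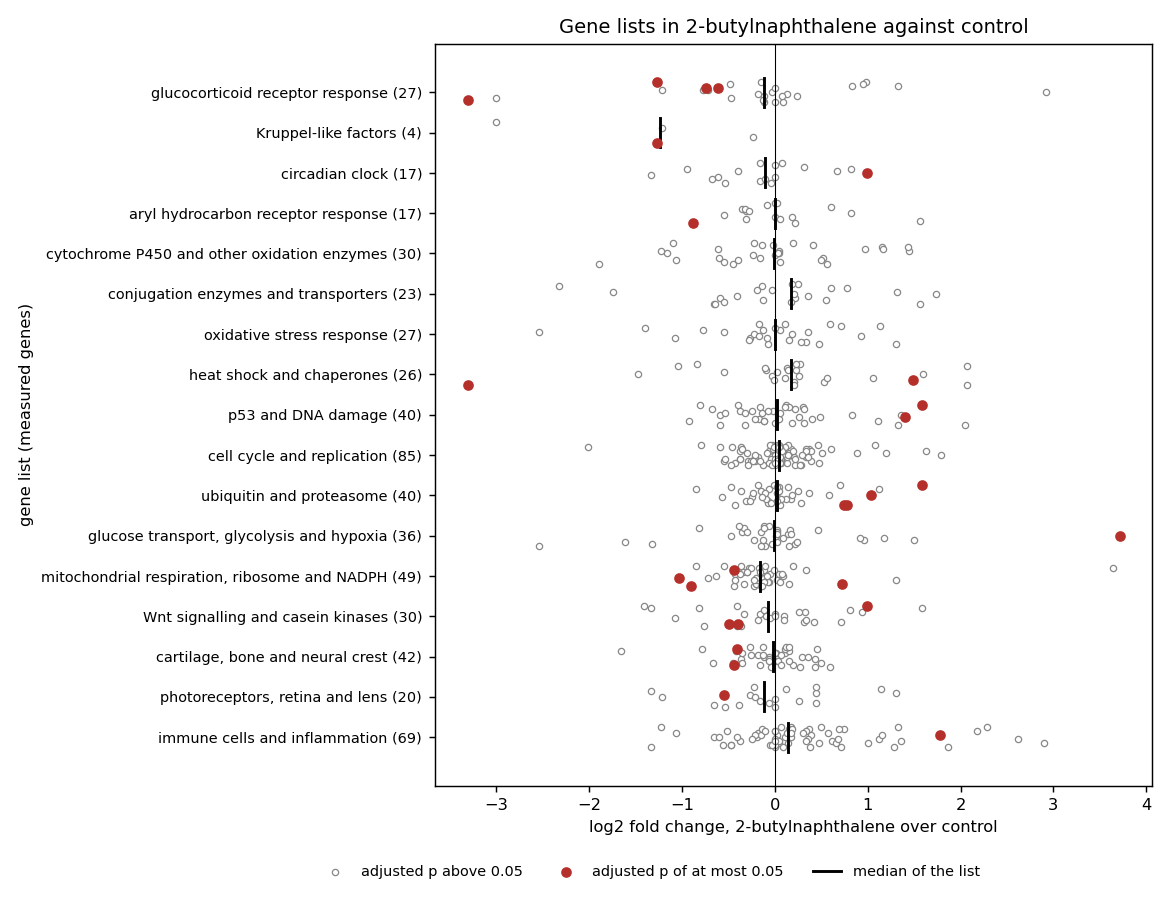
Log2FC of 2-butylnaphthalene over control (x axis) for every measured gene of 17 lists (rows, number of measured genes in brackets). Red points passed an adjusted p of 0.05, open points did not, and the black bars are list medians. Most medians lie within 0.2 of 0, except that of the 4 Kruppel-like factors at -1.24.

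Skeletal muscle, heart, erythrocyte, vessel, hatching gland, and liver, pancreas and gut lists held no gene past the adjusted p, against 1.69% of all genes. In that order they had 17, 11, 17, 30, 1 and 30 measured genes. The hatching gland list thus rests on xbp1 alone and cannot describe that tissue. The summed muscle level was 29138 ± 3176 CPM in 2-butylnaphthalene pools and 31217 ± 3167 CPM in control pools (SD, n = 4 and 5, exact two-sided permutation p = 0.373). The extracellular matrix list of 52 measured genes held 1 higher gene, crtap (log2FC 0.95 ± 0.25, adjusted p = 0.0352). Its lower genes were col1a1a and ccn1 (ccn1 log2FC -0.65 ± 0.18, adjusted p = 0.0456). Over all genes 0.815% were higher and 0.880% lower past the adjusted p. The matrix protease gene mmp9 had the list's largest fold (log2FC 2.92, adjusted p = 0.21).

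The genes fgfbp2b, nt5e and nt5dc2, which the study names, gave no call. The values of fgfbp2b, a binding protein of fibroblast growth factors, were 84.2 ± 13.8 CPM in 2-butylnaphthalene pools and 128 ± 23.6 CPM in control pools (SD, n = 4 and 5), without overlap but with an adjusted p of 0.17. The nucleotidase gene nt5e had 10, 13, 0 and 1 reads in 2-butylnaphthalene pools, against 31 reads in control pool 2B and 0 in the other 4. Its relative nt5dc2 had a log2FC of -0.16 with a 95% confidence interval of -0.43 to 0.11. The gap junction gene cx30.3, one of the 3 genes nearest to the adjusted p threshold from outside among those past the fold threshold (with mrps2 and klf9), had 11.7 ± 2.94 CPM in 2-butylnaphthalene pools and 4.73 ± 3.41 CPM in control pools (adjusted p = 0.063).

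The 4 pools did not contribute equally. Pool C was the nearest to the control mean for 7 of the 16 DEGs, among them mvp, clu, klf11a and mat2ab, and pool E was the farthest for 7. Without pool E, 6 DEGs were left, and without pool A, B or C there were 11, 12 and 15. The genes mvp, slc2a1b, klf11a and clu stayed DEGs with any 1 of the 9 pools left out. With the 3 control pools of day 2 in the fit of all samples there were 8 DEGs, of which 7 belong to the 16 (mvp, slc2a1b, klf11a, clu, chek2, usp1 and ndufa4) and 1, ube2t, was new. A fit of the day 2 samples alone gave 12 DEGs, with 9 of the 16, namely these 7, ube2g1a and fkbp5. Under both, fkbp5 had a log2FC of -3.51, with an adjusted p of 0.0924 in the fit of all samples and 0.0116 in that of day 2 alone. Its call was kept in 2 of the 9 fits without 1 pool. When only the 9 pools entered the fit, with no spread borrowed from other chemicals, limma gave 0 DEGs, 4 genes at an adjusted p of at most 0.05 and 372 at an unadjusted one.

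Because the same 5 control pools serve every chemical, the genes were also placed among the levels of all 22 chemicals, as a description. 2-Butylnaphthalene had the most extreme mean level of the 22, in its direction from control, for 8 of the 16 DEGs, and stood within the first 3 for 10. These DEGs were picked for the distance of the same pools from control, which by itself favours extreme places. The counts are thus not independent of that choice, and places over all genes were not counted. For mvp its mean log2 CPM was 8.04 ± 0.45 (SD, n = 4) (the next chemical was at 7.73 ± 0.26), with the other 21 chemicals between 6.92 and 7.73 and control at 6.76 ± 0.25. For clu its mean was 6.14 ± 0.59 and that of the next chemical 5.76 ± 0.31, with control at 4.66 ± 0.48. In both genes the gap to the next chemical was smaller than the SD of the 2-butylnaphthalene pools and larger than that of the next chemical.

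For other DEGs it was one of many. All 21 other chemicals had a lower klf11a mean than control, between 6.56 and 7.15 log2 CPM against 7.73 ± 0.06 in control, and 2-butylnaphthalene at 6.47 ± 0.44 was the lowest by less than its own SD. For fkbp5 it stood at place 10, at 1.73 ± 0.96 log2 CPM, with the other chemicals between -0.15 and 4.02 and control at 5.03 ± 0.61. For ctss2.1 it stood at place 8 and for rrp1 at place 6. All 21 other chemicals also had a lower mean than control for the DEGs ndufa4, fkbp5 and grm4. Outside the DEGs this held for klf9, hsd11b2 and bcl6aa too. It also held for genes of other lists, among them ndufb3, sucla2, col11a1b, pde6gb, ctnnb1, nkd1 and ccn1. The share of all genes for which it holds was not counted. All 21 had a higher mean than control for mvp, slc2a1b, chek2, usp1, rrp1, ctss2.1, ilf2 and slc7a7. The number with a higher mean was 20 for clu and mat2ab, 18 for ube2g1a and 6 for drd6b. The part of the shared control pools in this was not tested.

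**Figure D3:**
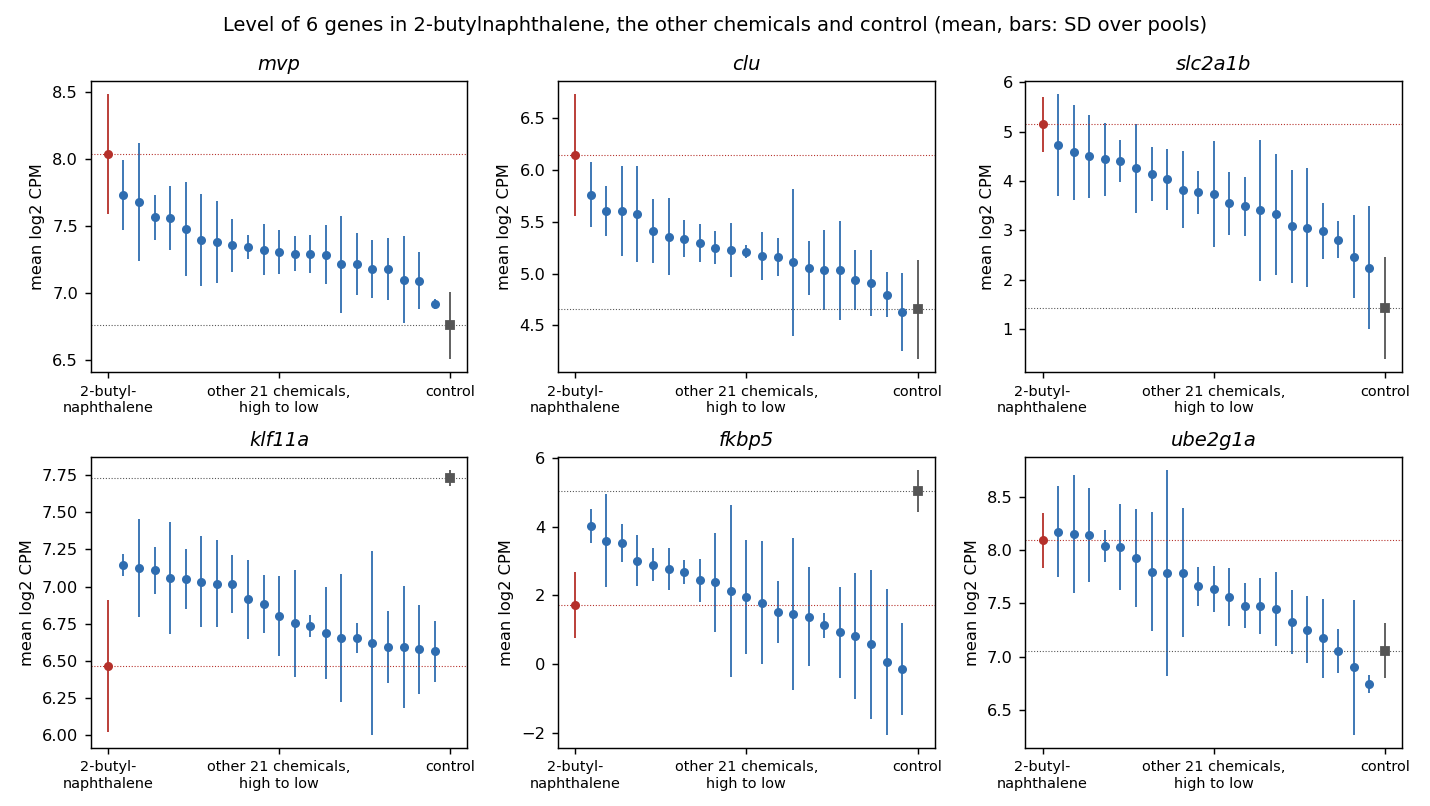
Mean log2 CPM (y axis) of 6 genes in 2-butylnaphthalene (red, left), the other 21 chemicals in falling order of their mean (blue) and control (grey square, right). Bars are SD over pools, and dotted lines carry the 2-butylnaphthalene and control means across. The red point lies beyond all blue points for mvp, clu, slc2a1b and klf11a, and among them for fkbp5 and ube2g1a.

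A comparison that uses no control pool set 2-butylnaphthalene against the mean of the other 10 chemicals of day 2, which have 40 pools. Limma gave 0 DEGs (0% of 3068 genes), with 5 genes (0.163%) at an adjusted p of at most 0.05 and 221 at an unadjusted one. The fit with voom weights on recovered reads gave 3 DEGs, mat2ab, slc2a1b and sst1.1, all higher.

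The 5 genes included mvp and clu. The difference for mvp was 0.74 ± 0.14 on the log2 scale (adjusted p = 0.00285). The 40 pools ran between 117 and 233 CPM with a median of 159 CPM, so that 0 of them reached the median of the 2-butylnaphthalene pools. Pool C, at 169 CPM, stood above only 25 of the 40. For clu the difference was 0.98 ± 0.19 (adjusted p = 0.00285), and the 40 pools ran between 19.9 and 59.7 CPM with a median of 37.0 CPM. Again 0 of the 40 exceeded the median of the 2-butylnaphthalene pools, although pool C, at 38.6 CPM, lay in their midst. The collagen gene col1a1a was lower by 0.34 ± 0.08 (adjusted p = 0.0321).

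The other 2 genes rest on unusual values. The plasminogen activator gene plaua had 5 reads in 2-butylnaphthalene pool C and 0 in the other 3 and in all control pools. The lysyl hydroxylase gene plod1a, named here after its values were seen, had 77.2 ± 6.29 CPM in 2-butylnaphthalene pools, while the other 40 pools ran between 5.94 and 96.2 CPM with a median of 66.2 CPM, and chemical means were as low as 2.84 log2 CPM. Its level in control was 66.2 ± 12.7 CPM (SD, n = 5). For slc2a1b the difference from the other day 2 chemicals was 1.51 ± 0.46 (adjusted p = 0.205), and for klf11a and fkbp5 it was -0.38 ± 0.16 and -0.26 ± 0.71 (adjusted p = 0.52 and 0.966).

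For structure, 3 compounds differ from 2-butylnaphthalene only in the group on ring position 2 and were given at the same dose of 20 µM for the same time. Naphthalene has none, 2-ethylnaphthalene has a shorter straight chain and 2-isopropylnaphthalene a branched one. The ethyl compound and naphthalene were exposed on day 2 too, whereas 2-isopropylnaphthalene was exposed on day 1, so that its day and structure cannot be told apart beyond the authors' correction. These 3 pairs were compared, with p-values for each of the 16 DEGs adjusted over the 3. The 16 genes were chosen because the same 2-butylnaphthalene pools stood apart from control, which favours differences in that direction, so these p-values are not independent of the choice.

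Against 2-ethylnaphthalene, 2 of all genes were DEGs (0.0652%), ube2g1a and csnk1a1, and 9 passed the adjusted p (0.293%). The level of ube2g1a was 292, 215, 266 and 328 CPM with 2-butylnaphthalene, against 107, 116, 103 and 102 CPM with 2-ethylnaphthalene, a difference of 1.35 ± 0.29 on the log2 scale (95% confidence interval 0.77 to 1.93, adjusted p over all genes 0.00886). The level of csnk1a1 was 579, 447, 439 and 543 CPM with 2-butylnaphthalene, against 227, 320, 214 and 238 CPM with 2-ethylnaphthalene, a difference of 1.01 ± 0.22 (95% confidence interval 0.58 to 1.45, adjusted p 0.00886). In both genes the ethyl compound's mean log2 level was close to that of control. It was 6.74 against 7.05 for ube2g1a and 7.95 against 7.97 for csnk1a1. For ube2g1a it was the lowest mean of all chemicals, and for csnk1a1 the lowest of the day 2 chemicals. With 1-methylnaphthalene the means of these genes were 8.17 and 8.96, against 8.09 and 8.96 with 2-butylnaphthalene. Also past the adjusted p was rpl15, with 7336, 5467, 5930 and 5572 CPM with 2-butylnaphthalene, against 3399, 3776, 3371 and 3609 CPM with 2-ethylnaphthalene.

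Of the 16 DEGs, 6 had a p of at most 0.05 for butyl against ethyl when adjusted over the 3 pairs, and 1, ube2g1a, when adjusted over all genes. Besides ube2g1a the 6 were slc2a1b (1.82 ± 0.62), usp1 (1.02 ± 0.38), mvp (0.71 ± 0.19), clu (0.73 ± 0.25) and drd6b, all higher with 2-butylnaphthalene. For klf11a the difference was -0.19 with an interval of -0.61 to 0.24, and for fkbp5 it was -0.65 with an interval of -2.56 to 1.26, which leaves room for large differences either way.

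Against naphthalene, 1 gene was a DEG (0.0326%), ugt1a2, which codes for a UDP-glucuronosyltransferase, an enzyme that conjugates drugs and other compounds to glucuronic acid. It had 22.9, 20.0, 18.4 and 25.1 CPM with 2-butylnaphthalene, against 5.54, 4.59, 6.22 and 11.0 CPM with naphthalene, and the groups did not overlap. The difference was 1.70 ± 0.34 (95% confidence interval 1.02 to 2.38, adjusted p over all genes 0.0138). In control pools ugt1a2 had 8.84, 7.86, 10.2, 23.3 and 10.4 CPM and against control 2-butylnaphthalene did not pass (adjusted p = 0.155). The naphthalene call was lost when pool A or E of 2-butylnaphthalene or pool A, B or C of naphthalene was left out, with voom, and in a fit of the 8 pools of both compounds alone.

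Of the 16 DEGs, 4 had a p of at most 0.05 against naphthalene when adjusted over the 3 pairs, and 0 when adjusted over all genes. The 4 were mvp (0.74 ± 0.19), clu (0.98 ± 0.25), drd6b, and klf11a, which was lower with 2-butylnaphthalene by 0.64 ± 0.21 (adjusted p = 0.0102). The 4 levels of klf11a were 71.1 to 139 CPM with 2-butylnaphthalene and 119 to 154 CPM with naphthalene. For fkbp5 the difference was -2.29 with an interval of -4.20 to -0.38 (limma's p adjusted over the 3 pairs 0.0586), and the pools of both compounds did not overlap. For chek2 it was -0.0024 with an interval of -0.67 to 0.66.

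Against 2-isopropylnaphthalene limma gave 0 DEGs (0% of all genes) and 0 genes at an adjusted p of at most 0.05, with 255 at an unadjusted one, and voom on recovered reads gave 1 DEG. Of the 16 DEGs, 5 had a p of at most 0.05 when adjusted over the 3 pairs and 0 when adjusted over all genes, the 5 being all higher with 2-butylnaphthalene, namely mvp (0.65 ± 0.19), clu (0.57 ± 0.25), usp1 (1.50 ± 0.38), ube2g1a (1.04 ± 0.29) and drd6b. For slc2a1b the difference was 0.57 with an interval of -0.67 to 1.80, and for klf11a it was -0.13 with an interval of -0.55 to 0.30. The mean levels of mvp and clu were higher with 2-butylnaphthalene than with each of the 3 related compounds, 1 or more pools overlapped in each of these pairs, and neither gene passed over all genes in any of them.

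**Figure D4:**
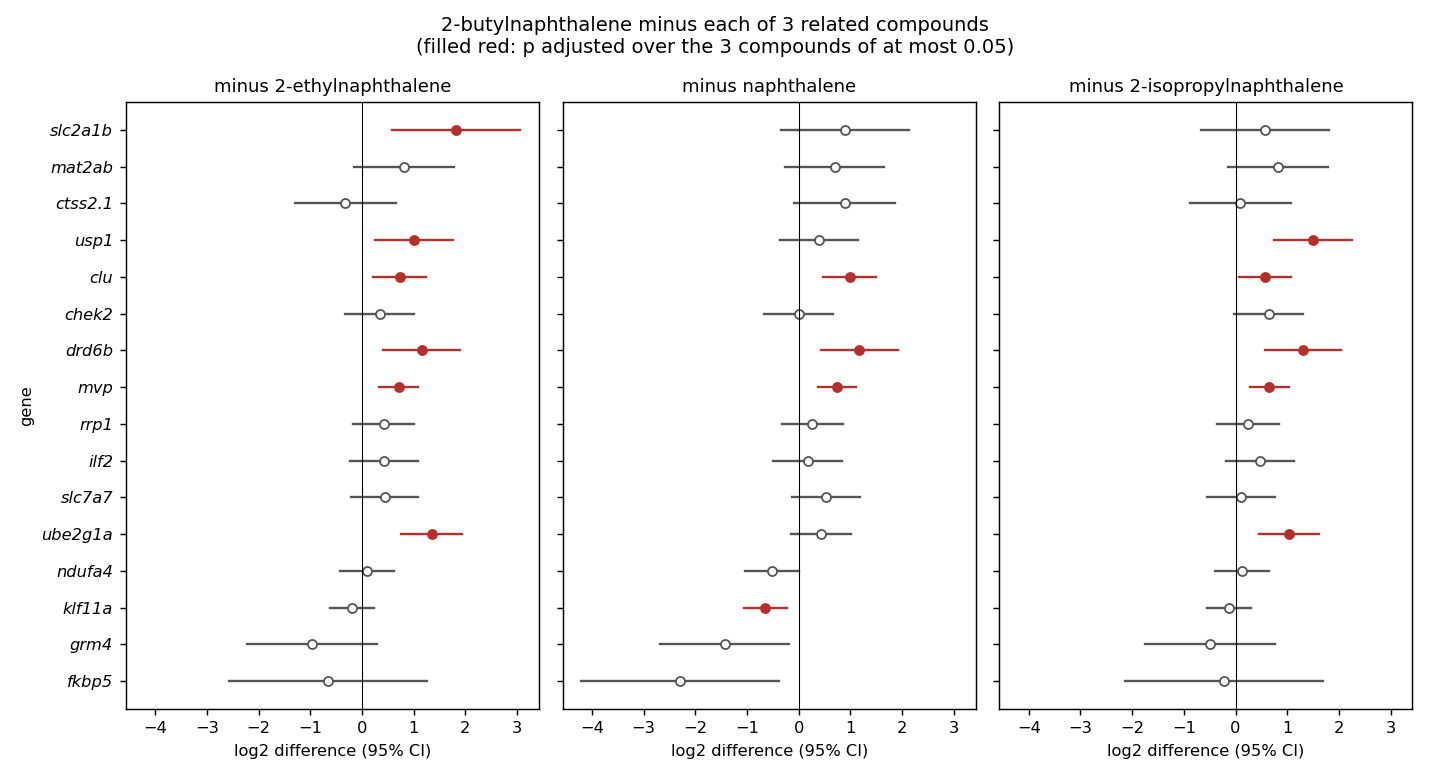
Log2 difference of 2-butylnaphthalene minus each of 3 related compounds (x axis, points with 95% confidence intervals) for the 16 DEGs (rows). Filled red points have a p adjusted over the 3 compounds of at most 0.05, and open grey points do not. There are 6 red points against 2-ethylnaphthalene, 4 against naphthalene and 5 against 2-isopropylnaphthalene, with mvp, clu and drd6b red in all 3 panels. Those of drd6b rest on 12 and 9 reads in 2-butylnaphthalene pools B and E, with 0 reads in A and C. Adjusted over all genes, only ube2g1a against 2-ethylnaphthalene passes.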

How the data were processed

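Whole zebrafish embryos were assayed with the TempO-Seq S1500+ panel. The authors demultiplexed and aligned reads with the manufacturer's platform, summed probes per gene, removed 1 control sample, corrected counts for exposure day with ComBat_seq and scaled them to the upper quartile. The deposited values are log2 CPM, and the values themselves show a prior count of 2. The submitters' processing notes name edgeR and GRCz11. The authors' table of limma comparisons (fold changes and p-values) was not used, and 0 columns of the value table were left unmapped.

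Whole reads were recovered from the values. After removal of the level of a gene without reads (-2.39 log2 CPM), 100% of values were whole to within 0.02 reads, and the 93 totals were 7.21 to 16.5 M. These are reads after the authors' correction. CPM values in the text have the prior taken off, whereas log2 levels keep it. Depth sets the counting error only.

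All 93 samples entered 1 limma fit (limma 3.58.1, R 4.3.3) with 23 group means and no covariate. P-values were Benjamini-Hochberg adjusted over 3068 genes, 1 of which is listed under a number and is not named. No filter on low values was used. Pool measures were compared by exact permutation (Python 3.11.15). Genes named were all DEGs, up to 10 genes with a smaller fold and 3 just outside the threshold, genes the study names, DEGs of the other comparisons, and the member of each list described with the largest fold. Further genes past the threshold are named as members of lists. The members, lists and tests were chosen with earlier results of these data known. Scripts were tested on simulated data. Alternatives were other sample sets, covariates, pseudocounts of 1 and 4 CPM, median centring, voom with TMM scaling (own code) on recovered reads, a filter at a mean log2 of 1, a variance trend and leaving out each pool. Same-lettered pools of different groups did not deviate together (median r 0.0015 over 828 pairs), so letters do not pair pools.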

Additional observations from a re-analysis of the deposited data

Results flagged for a closer look

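In 6 of 70 groups of pools tested, 1 pool lay far from the others of its group, where chance gives about 1 in 20. Among 2-butylnaphthalene pools, grm4 was at -0.29 log2 CPM in pool C and 2.39 to 2.81 in the other 3, and rrp1 was at 4.67 in pool E and 5.39 to 5.42 in the other 3. Among control pools, slc2a1b was at -0.36 in pool 2B and 1.61 to 2.16 in the other 4, ctss2.1 at -0.92 in pool 1C and 1.83 to 2.90 in the other 4, and fkbp5 at 3.99 in pool 1A and 5.07 to 5.48 in the other 4. The level of nt5e was 1.94 in control pool 2B, and the other 4 had no reads.

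By limma, 3 differences between related compounds passed both the adjusted p over all genes and the fold threshold. They were ube2g1a (1.35) and csnk1a1 (1.01), higher with 2-butylnaphthalene than with 2-ethylnaphthalene, and ugt1a2 (1.70), higher with 2-butylnaphthalene than with naphthalene.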

How the results depend on the processing

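Against control there were 16 DEGs, of which 12 were higher. A fit of the 9 pools alone gave 0 by limma, with 372 genes at an unadjusted p of at most 0.05. Voom in the fit of all groups gave 14 DEGs. Day 2 controls gave 8 and a covariate for exposure day gave 8, each with 7 of the 16. These 2 settings are 1 comparison, because only the controls span both days, yet each is counted among the other settings. A fit of day 2 samples alone gave 12, with 9 of the 16. Centring on the sample median gave 13 higher and 3 lower DEGs. Without 1 pool the count was 6 to 16, lowest without 2-butylnaphthalene pool E. Against the other day 2 chemicals the 0 DEGs became 1 with the replicate block (slc2a1b), 3 with voom and 0 to 5 without 1 pool, highest without 2-butylnaphthalene pool C. Against 2-ethylnaphthalene the 2 DEGs became 0 in a fit of that pair alone, 1 with the replicate block and 1 to 3 without 1 pool. Against naphthalene the 1 DEG, ugt1a2, became 2 others (gpx1a and pcdh1a3) in a fit of that pair alone, 0 with voom and 0 to 4 without 1 pool, highest without 2-butylnaphthalene pool C. Against 2-isopropylnaphthalene the 0 DEGs became 2 in a fit of that pair alone, 1 with voom and 0 to 6 without 1 pool, highest without 2-isopropylnaphthalene pool B. The cause of these changes was not tested. The replicate block by pool letter gave 13 DEGs against control, and letters do not pair the pools. For 2-isopropylnaphthalene, a fit of day 2 samples alone was not possible. No fold change of a single named gene reversed. Depth limits genes with few reads, such as drd6b and plaua.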
